A study of Mus musculus with 8 samples.

Results

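The genes described here are 44 genes of DNA replication and mitosis, chosen by symbol from the 38610 symbols of the deposited FPKM table. FPKM are fragments mapped to a gene, scaled to its length and to the depth of the library. Earlier results of these data were known when the genes were chosen. They were 21 replication genes, 17 mitotic genes and 6 genes of the G1 phase, which precedes replication. All 44 were found in the table and all 44 passed the low-value filter of at least 1 FPKM in at least 2 libraries, as did 13188 symbols in all. The study measured RNA in CJ9 cells, a mouse embryonic stem cell line of strain 129S4/SvJae, on day 4 after LIF was withdrawn. LIF is the cytokine that maintains self-renewal in culture, and its withdrawal lets the cells differentiate. Its design text states the aim of finding genes that differ between wild-type and edited or depleted cells as they differentiate. The libraries fell into 3 groups that shared line, strain, medium and day: 2 wild-type (WT) libraries, 3 from cells with a CRISPR knockout of Evx1as, a long noncoding RNA transcribed beside the homeobox gene Evx1, and 3 from cells with a CRISPR knockout of EVX1 itself. Whether the libraries of a group came from 1 clone or several, or from separate cultures, the sources used here do not give, so the p-values measure only the spread between these libraries, which may be technical.

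Replication is prepared in G1, when Cdc6 and Cdt1 load the ring-shaped Mcm2 to Mcm7 helicase onto origins. In S phase Mcm10, Cdc45 and the GINS complex switch the helicase on, polymerases copy the strands, and the Pcna clamp, loaded by the Rfc complex, holds polymerases to the template. Mitotic genes act later: B-type cyclins and Cdk1 drive entry, the Bub and Mad proteins guard chromosome attachment, and Cdc20 starts the separation of the chromosomes. Replication genes are textbook targets of E2F factors, which D-type and E-type cyclins release from the retinoblastoma proteins, whereas many mitotic genes carry CCAAT boxes and a CHR element (cell cycle genes homology region) in their promoters. Mouse embryonic stem cells divide rapidly with a short G1, which lengthens when they differentiate.

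The promoters of both classes were read in RefSeq (GRCm38.p6), which had an entry for 35 of the 44 genes, to show the sequence features that separate the classes. The window ran from 250 bases before the start to 50 after it. Of 17 replication promoters, 9 (52.9%) held an E2F motif, searched as TTTCCCGC, TTTCGCGC, TTTGCCGC or TTTGGCGC on both strands, as did 1 of 15 mitotic promoters (6.67%, that of Cdk1) and 2.6% of the 27025 genes with a promoter entry. The CHR motif TTTGAA showed the opposite distribution, with 10 of 15 mitotic promoters (66.7%), 2 of 17 replication promoters (11.8%, those of Mcm2 and Cdc45) and 20.2% of all genes. CCAAT was common in both classes, in 13 of 15 mitotic promoters (86.7%) and 12 of 17 replication promoters (70.6%), against 41.1% of all genes. The CHR motif and CCAAT occurred together in 10 mitotic and 2 replication promoters. The 180 bases before the start are shown for 5 genes that hold the motifs of their class, 5′ to 3′ on the strand of the gene, with E2F motifs, CHR motifs and CCAAT boxes in capitals, read as their reverse complement where they lie on the other strand.
Mcm5, chr8:75109329-75109508, plus strand: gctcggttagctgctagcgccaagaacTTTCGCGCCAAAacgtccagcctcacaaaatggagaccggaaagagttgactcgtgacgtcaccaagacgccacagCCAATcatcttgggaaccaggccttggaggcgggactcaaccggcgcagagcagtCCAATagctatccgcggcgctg
Mcm6, chr1:128359706-128359885, minus strand: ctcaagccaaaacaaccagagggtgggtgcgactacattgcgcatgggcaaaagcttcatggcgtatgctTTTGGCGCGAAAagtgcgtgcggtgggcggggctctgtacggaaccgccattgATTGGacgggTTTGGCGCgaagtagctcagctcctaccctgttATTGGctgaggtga
Ccnb2, chr9:70421555-70421734, minus strand: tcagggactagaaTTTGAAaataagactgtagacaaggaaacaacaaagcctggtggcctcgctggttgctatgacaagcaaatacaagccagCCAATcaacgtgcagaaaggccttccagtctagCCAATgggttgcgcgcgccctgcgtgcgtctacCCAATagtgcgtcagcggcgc
Cdc20, chr4:118437344-118437523, minus strand: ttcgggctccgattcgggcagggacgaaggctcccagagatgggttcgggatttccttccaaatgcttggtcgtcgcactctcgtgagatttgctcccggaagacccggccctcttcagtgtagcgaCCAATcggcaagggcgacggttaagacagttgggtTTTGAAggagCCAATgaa
Kif11, chr19:37376202-37376381, plus strand: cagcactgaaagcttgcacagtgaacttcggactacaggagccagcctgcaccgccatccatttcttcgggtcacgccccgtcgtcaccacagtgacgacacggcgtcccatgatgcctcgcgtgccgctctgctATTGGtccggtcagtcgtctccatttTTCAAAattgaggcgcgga
In Mcm5 and Mcm6 a pair of E2F motifs overlapped on opposite strands, at positions −153 to −142 and −110 to −99 counted from the start. In Cdc20 the CHR motif lay at −18 to −13 and in Kif11 at −19 to −14, each downstream of a CCAAT box. In Ccnb2 the CHR motif shown, at −167 to −162, lay upstream of the CCAAT boxes. A further Ccnb2 CHR motif lay just after the start, at positions 5 to 10, outside the stretch shown. A match is a run of letters and does not show that a factor bound there. The table's own positions were not used with these coordinates, since only 4 of the 44 loci overlapped their GRCm38 positions.

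The libraries had similar summed FPKM, from 531523 to 587798, and 12244 to 12442 genes at 1 FPKM or more. Spacing between low values put relative depth between 0.863 and 1.19 of WT 1, and the absolute depth is unknown. The targeted transcripts were checked first. Evx1as stood at 5.36 and 6.75 FPKM in WT and at 0.0485 to 0.104 in Evx1as KO, where Evx1 was also low (0.541 to 3.84 against 22.0 and 31.2). Evx1 transcript in the libraries labelled EVX1 KO, at 20.8 to 31.7 FPKM, overlapped WT, so that label was not checked by this table. Some chromosomes stood apart as a whole: the median deviation of the 505 genes of chromosome 8 from their mean over the libraries was −0.38 and −0.30 (log2) in EVX1 KO 1 and 2 and 0.08 in EVX1 KO 3. It was 0.11 and 0.01 in WT and higher, at 0.15 to 0.16, in Evx1as KO. The median of the 470 genes of chromosome 1 was 0.12 to 0.14 in all 3 EVX1 KO libraries and −0.10 to 0.02 elsewhere. The 323 genes of chromosome 14 stood at −0.36 and −0.34 in Evx1as KO 2 and 3 and at −0.03 to 0.18 elsewhere, but none of the 44 lies there. Mcm5, Cdt1 and Gins2 lie on chromosome 8, and Mcm3 and Mcm6 on chromosome 1. Of 8 embryonic stem cell markers, 5 rose in Evx1as KO (Pou5f1, Sox2, Nanog, Utf1 and Lin28a), and Zfp42 was lower without a call (−0.46, log2). The summed level of all 8 was 641 to 759 FPKM in WT (lowest and highest library). It was 1096 to 1163 in Evx1as KO and 730 to 750 in EVX1 KO. The EVX1 KO sum hid differences of both signs from WT, such as Nanog at 1.43 and Dppa5a at −1.42 (log2). There 5 of the 8 were above 0, and none was called. Of 10 fibroblast or feeder markers, 7 passed the filter and 2, Vim and Col3a1, fell in Evx1as KO. Of the 7, 1 was above WT there, Thy1 (0.42, log2, not called). The 10 summed to 374 to 500, 116 to 186 and 207 to 303 FPKM in the 3 groups. Most of each sum was Vim alone, at 475 and 332 in WT, 140, 169 and 88.5 in Evx1as KO and 280, 209 and 177 in EVX1 KO. Lum was listed at 0 in 3 libraries and Postn in 1. The part of these markers in the results below was not tested. In bulk RNA, fewer cells in a phase and less RNA per cell cannot be told apart.

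By mean FPKM over the 8 libraries, a value per transcript length, the 44 genes ran from Mcm3 (176), Mcm7 (145), Cdc20 (142) and Pcna (126) down to Pola1 (3.66) and the E-type cyclin Ccne2 (1.66). Within the helicase ring, Mcm4 was the lowest of the 6 subunits in all 8 libraries and Mcm3 the highest in 7. The subunits summed to 658 and 636 FPKM in WT, to 881, 817 and 881 in Evx1as KO and to 628, 627 and 710.1 in EVX1 KO. The 3 Evx1as KO sums thus lay above all others, and the EVX1 KO sums overlapped WT.

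**Figure D1:**
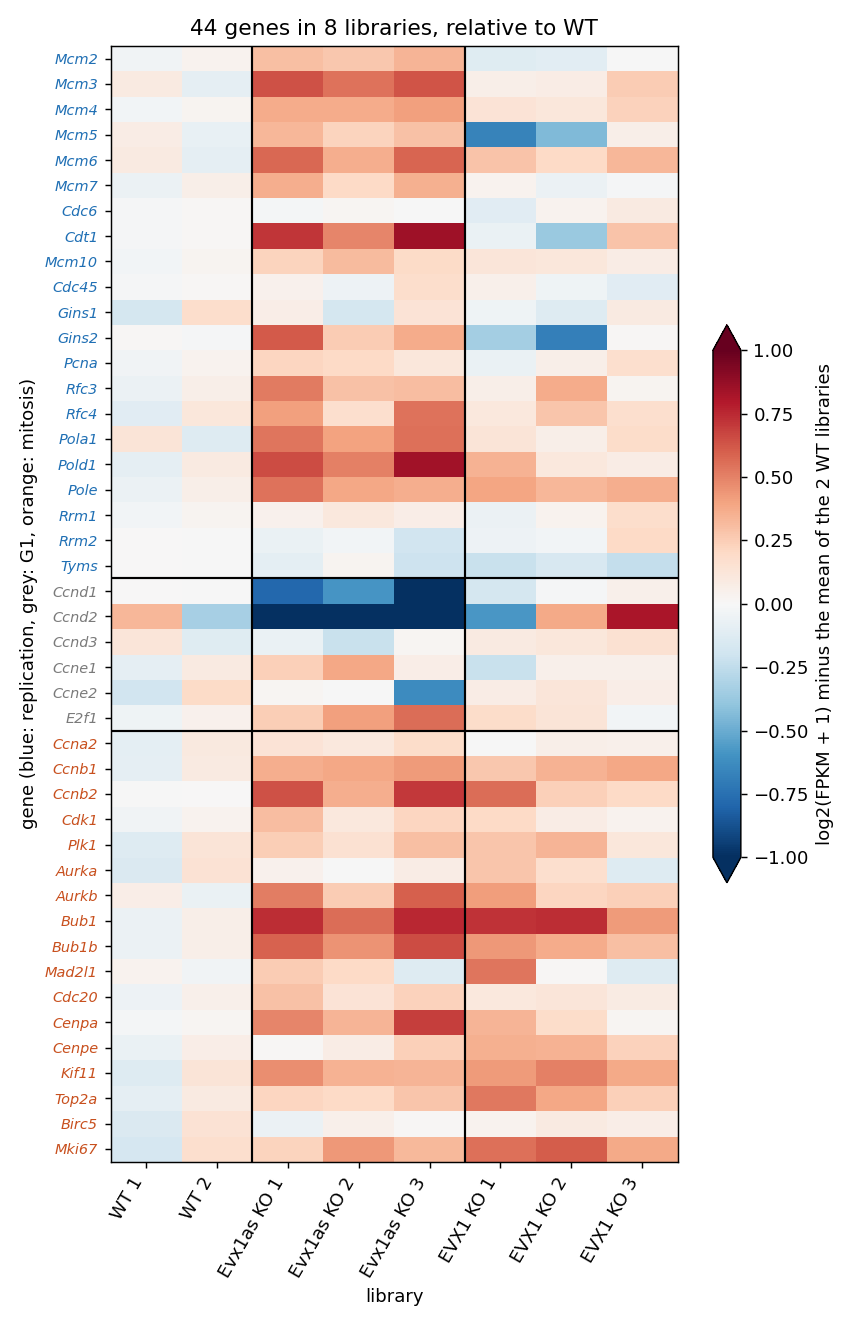
Heat map of log2(FPKM + 1) minus the WT mean for each of the 44 genes (rows; names coloured by class) in each of the 8 libraries (columns), on a colour scale from −1 to 1. Most replication rows are high in the 3 Evx1as KO columns and near the WT level in the EVX1 KO columns, while many mitotic rows are above the WT mean in both, and Ccnd1 and Ccnd2 are low in Evx1as KO.

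The first comparison asked how these genes stood in Evx1as KO against WT. In Evx1as KO 9 replication and 7 mitotic genes rose, the largest rises among them those of the loading factor gene Cdt1, the checkpoint gene Bub1, the polymerase gene Pold1 and the helicase gene Mcm3, and the G1 cyclins Ccnd1 and Ccnd2 fell. The other replication and mitotic genes did not pass the test, and Cdc6, Gins1 and Birc5 stood near their WT level. Of the 44, 17 rose and 2 fell by limma on log2(FPKM + 1), with p-values adjusted over all genes (Benjamini-Hochberg, two-sided, adjusted p under 0.05). Over all 13188 genes the same rule called 24.5% in either direction, 13% higher and 11.4% lower. By class, 9 of 21 replication genes, 7 of 17 mitotic genes and 1 of 6 G1 genes rose, and the median log2 difference was 0.31, 0.23 and −0.15, against 0.02 over all genes. The difference was above 0 for 18 of 21 replication genes and 17 of 17 mitotic genes, as for 6834 of the 13188 genes. The Evx1as KO libraries lay wholly above WT for 30 of the 44 and wholly below for 3, where all genes gave 29.5% and 26.2%.

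Origin licensing had the most calls, 6 of 8 genes. Values are given below in replicate order, as FPKM. Mcm3 was 152 and 134 in WT, 223, 209 and 221 in Evx1as KO and 149, 150.4 and 171 in EVX1 KO. All 3 Evx1as KO libraries were above every other library, and Mcm3 rose by 0.60 ± 0.09 (log2 ± SE, limma adjusted p = 0.00340), a call kept whichever library was left out. Mcm6 was 91.5 and 80.9 in WT, 129, 111 and 129.6 in Evx1as KO and 105, 98.9 and 108 in EVX1 KO. The 3 groups did not overlap, with WT lowest and Evx1as KO highest, and Mcm6 rose by 0.51 ± 0.10 (adjusted p = 0.00804). Mcm4 was 55.1 and 57.0 in WT, 72.9, 72.8 and 74.7 in Evx1as KO and 61.6, 60.6 and 65.8 in EVX1 KO. This subunit showed the same order of groups and rose by 0.39 ± 0.08 (adjusted p = 0.00873). Mcm2 was 107 and 113 in WT, 136, 133 and 139 in Evx1as KO and 101, 102 and 109.6 in EVX1 KO, and Mcm7 was 129 and 139, then 172, 154 and 172, then 137, 128 and 132. For both, Evx1as KO stood above all other libraries and EVX1 KO overlapped WT. Mcm2 rose by 0.30 ± 0.08 (adjusted p = 0.0208) and Mcm7 by 0.31 ± 0.08 (adjusted p = 0.0293).

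Mcm5, the sixth subunit, was 124 and 112 in WT, 149, 138 and 145 in Evx1as KO and 73.9, 86.4 and 123 in EVX1 KO. Evx1as KO lay above WT, but the difference of 0.28 ± 0.18 did not pass the test (adjusted p = 0.276), and EVX1 KO 1 and 2 stood apart below EVX1 KO 3. Of the loading factors, Cdt1 was 48.1 and 49.1 in WT, 80.5, 68.6 and 88.1 in Evx1as KO and 46.4, 37.4 and 59.6 in EVX1 KO. Cdt1 rose by 0.68 ± 0.18 in Evx1as KO (adjusted p = 0.0235), with no overlap of Evx1as KO and the other libraries. Cdc6, its partner in loading, was flat at 16.6 to 19.4 in all 8 libraries (−0.00, adjusted p = 0.987). Helicase activation had no call: Mcm10, Cdc45 and Gins1 differed by 0.01 to 0.24. By the unadjusted limma p 1 of the 4 genes fell under 0.05, as did 5079 of the 13188 genes. Gins2, a GINS subunit, was 42.2 and 41.7 in WT, 64.7, 50.1 and 54.6 in Evx1as KO and 33.0, 25.7 and 42.3 in EVX1 KO. Its Evx1as KO libraries lay above all others, at 0.41 ± 0.18 over WT (adjusted p = 0.135).

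Of the polymerases and their clamp, 3 of 6 genes rose, each the catalytic subunit of a replicative polymerase. Pold1, of polymerase delta, was 26.6 and 30.3 in WT, 45.1, 40.6 and 51.7 in Evx1as KO and 36.4, 30.7 and 30.0 in EVX1 KO. It rose by 0.66 ± 0.13 (adjusted p = 0.00776), with Evx1as KO above all other libraries. Pole, of polymerase epsilon, was 11.9 and 13.0 in WT, 18.6, 16.6 and 16.3 in Evx1as KO and 16.7, 15.9 and 16.3 in EVX1 KO, and rose by 0.43 ± 0.10 (adjusted p = 0.0135). WT was below both knockouts, which overlapped. Pola1, of the polymerase alpha that starts each strand with primase, was low throughout, at 3.29 and 2.58 in WT, 4.68, 4.17 and 4.75 in Evx1as KO and 3.29, 3.09 and 3.46 in EVX1 KO. It rose by 0.50 ± 0.13 (adjusted p = 0.0243), and no Evx1as KO library overlapped another group. The clamp gene Pcna, at 116 and 121 in WT, 137, 136 and 128 in Evx1as KO and 113, 124 and 133 in EVX1 KO, did not pass (0.17 ± 0.09, adjusted p = 0.182), although Evx1as KO lay above WT. None of the 3 genes of nucleotide supply was called by limma or had an unadjusted p under 0.05 (0 of 3), where 5079 of the 13188 genes did. Rrm2, a ribonucleotide reductase subunit, was 66.1 and 65.8 in WT, 62.8, 64.8 and 57.7 in Evx1as KO and 63.8, 64.6 and 76.0 in EVX1 KO, a difference of −0.10 ± 0.10 in Evx1as KO against WT (adjusted p = 0.519).

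Mitotic calls were spread over all 3 roles. Bub1, a checkpoint kinase at kinetochores, was 3.28 and 3.66 in WT, 6.47, 5.56 and 6.51 in Evx1as KO and 6.38, 6.43 and 4.98 in EVX1 KO. WT was the lowest group, both knockouts overlapped, and Bub1 rose by 0.68 ± 0.14 in Evx1as KO (adjusted p = 0.00876). Bub1b, encoding the checkpoint protein BubR1, was 34.1 and 37.1 in WT, 54.1, 48.9 and 56.5 in Evx1as KO and 48.3, 46.4 and 44.1 in EVX1 KO. Its 3 groups did not overlap, and it rose by 0.57 ± 0.09 (adjusted p = 0.00430) whichever library was left out. Cdc20, which activates the ligase that ends metaphase, was 126 and 134 in WT, 159.6, 143 and 153 in Evx1as KO and 139.8, 142 and 138 in EVX1 KO. The groups were apart in the same order, but its 0.22 ± 0.08 did not pass (adjusted p = 0.0718).

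Of the cyclins and kinases, 3 of 7 rose. Ccnb2 was 65.1 and 65.2 in WT, 102, 84.2 and 107 in Evx1as KO and 96.3, 76.8 and 74.9 in EVX1 KO, and rose by 0.57 ± 0.14 (adjusted p = 0.0165). Ccnb1, its paralog, was 49.5 and 56.4 in WT, 68.2, 69.3 and 71.5 in Evx1as KO and 63.9, 67.5 and 69.5 in EVX1 KO, and rose by 0.39 ± 0.09 (adjusted p = 0.0130). Aurkb, the kinase of the chromosomal passenger complex, was 32.5 and 29.5 in WT, 44.6, 37.0 and 47.3 in Evx1as KO and 41.8, 36.0 and 36.7 in EVX1 KO, and rose by 0.45 ± 0.12 (adjusted p = 0.0264). In all 3 genes WT was below both knockouts, which overlapped each other. Plk1, the most abundant mitotic kinase here, was 90.7 and 109 in WT, 118, 110.4 and 123 in Evx1as KO and 120.4, 126 and 107 in EVX1 KO. Evx1as KO lay just above WT and the difference of 0.23 ± 0.11 did not pass (adjusted p = 0.142).

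Of the chromosome and spindle genes, Cenpa and Kif11 rose. Cenpa, the histone H3 variant of centromeres, was 37.5 and 38.4 in WT, 53.6, 48.2 and 62.0 in Evx1as KO and 48.3, 43.2 and 38.5 in EVX1 KO, and rose by 0.51 ± 0.13 (adjusted p = 0.0207). Kif11, the motor that separates spindle poles, was 7.33 and 8.91 in WT, 11.6, 10.6 and 10.5 in Evx1as KO and 11.2, 11.9 and 10.8 in EVX1 KO, and rose by 0.38 ± 0.11 (adjusted p = 0.0353). WT was lowest for both. Birc5 (survivin), also of the passenger complex, was 85.1 and 104 in WT, 90.4, 97.7 and 94.7 in Evx1as KO and 96.6, 101 and 98.8 in EVX1 KO. Its 3 groups overlapped and the difference in Evx1as KO was 0.00 (adjusted p = 0.995).

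The G1 genes split. Ccnd1 was 63.4 and 62.9 in WT, 36.3, 41.6 and 26.7 in Evx1as KO and 55.8, 62.5 and 65.4 in EVX1 KO. Evx1as KO was below every other library, and Ccnd1 fell by 0.86 ± 0.16 (adjusted p = 0.00702). Ccnd2 was 7.59 and 4.40 in WT, 2.23, 1.34 and 0.973 in Evx1as KO and 3.55, 7.87 and 10.998 in EVX1 KO, and fell by 1.47 ± 0.39 (adjusted p = 0.0257), again with Evx1as KO lowest. Ccnd3, the most abundant D-type cyclin in all 8 libraries, was 113 and 95.8 in WT, 99.6, 89.3 and 106 in Evx1as KO and 111, 113 and 116 in EVX1 KO, and did not pass (−0.09 ± 0.10, adjusted p = 0.564). The summed FPKM of the 3 D-type cyclins was 184 and 163 in WT, 138, 132 and 134 in Evx1as KO and 170.5, 183 and 192 in EVX1 KO. Ccnd3 made up 61.5% and 58.7% of that sum in WT and 72.1%, 67.6% and 79.3% in Evx1as KO, above all other libraries (65.2%, 61.5% and 60.3% in EVX1 KO). E2f1, the activating E2F, was 9.10 and 9.68 in WT, 11.3, 12.8 and 14.3 in Evx1as KO and 10.8, 10.3 and 9.20 in EVX1 KO, and rose by 0.41 ± 0.12 (adjusted p = 0.0387) with Evx1as KO above all others. The E-type cyclins did not pass: Ccne1 differed by 0.23 and Ccne2 by −0.20.

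**Figure D2:**
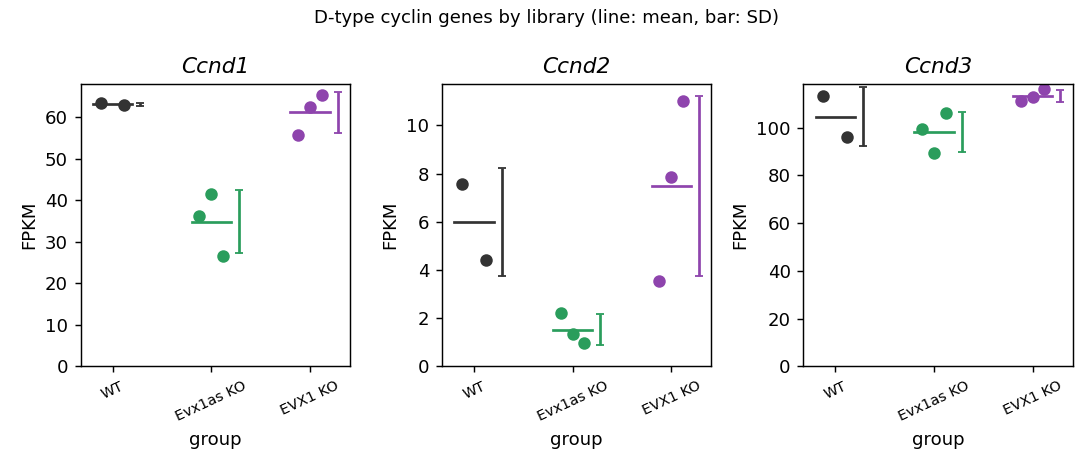
FPKM of Ccnd1, Ccnd2 and Ccnd3 in each of the 8 libraries, by group (1 point a library, lines at the group means, bars of 1 SD). Ccnd1 and Ccnd2 are lowest in the 3 Evx1as KO libraries, while Ccnd3 overlaps WT there.

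With 2 WT libraries, many of these calls depended on single libraries. Calls fell over all genes as well: without Evx1as KO 3, 9 of the 44 and 1807 of 13038 genes were called, against 19 and 3230. Only Mcm3, Bub1b and Ccnd1 of the 19 were called with each library left out in turn (highest adjusted p 0.0292, 0.0370 and 0.0483). Fewer of the 19 were left without WT 1 than without any other library. Bub1, Mcm4, Pold1, Pole and Ccnb1 were lost only when WT 1 was left out, and Mcm6 only when WT 2 was. Aurkb, Ccnb2, Cdt1, Cenpa and Mcm2 were lost without WT 1, WT 2, Evx1as KO 1 or Evx1as KO 3 (up to 0.146, 0.0819, 0.110, 0.100 and 0.111), and Mcm7 also without EVX1 KO 2 (0.153). Pola1 was lost without WT 2, Evx1as KO 1 or 3 (0.153), Ccnd2 without either WT, Evx1as KO 2 or 3 (0.168), E2f1 without these or EVX1 KO 2 (0.163), and Kif11 without WT 1, EVX1 KO 2 or any Evx1as KO library (0.205). None of these 19 fold changes moved by over 1.5 times. Taking the replicate number as a block left 13 of the 19 calls, without Ccnd2, Cenpa, E2f1, Kif11, Mcm2 and Mcm7. With that block 2575 of the 13188 genes were called, against 3230 without it.

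The second comparison asked the same of the libraries labelled EVX1 KO against WT. None of the 44 genes passed by limma, and few genes did anywhere: 1.24% of the 13188, with 0.69% higher and 0.554% lower. At an unadjusted p under 0.05 there were 12 of the 44, against 2800 of the 13188, and limma with array weights called 7 (Bub1, Bub1b, Ccnb1, Kif11, Mki67, Pole and Top2a), against 1148 of the 13188. The 2 classes stood at different levels: the median log2 difference was 0.29 over the 17 mitotic genes, with all 17 above 0, and 0.05 over the 21 replication genes, with 13 above 0, against 0.02 over all genes. EVX1 KO libraries lay wholly above WT for 11 of 17 mitotic genes and for 4 of 21 replication genes, where 21.2% of all genes did. Of the 12 genes with an unadjusted p under 0.05, 10 were mitotic and the others were Pole and Mcm6.

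Bub1 had the largest mitotic difference, 0.63 ± 0.14 (limma adjusted p = 0.0635). Mki67, a marker of cycling cells named here after its values were seen, was 11.6 and 14.9 in WT, 15.5, 18.1 and 16.7 in Evx1as KO and 19.7, 20.5 and 17.3 in EVX1 KO. It was 0.51 ± 0.13 higher in EVX1 KO than in WT without passing the test (adjusted p = 0.0826), with no overlap of the 2 groups. Top2a, the topoisomerase that untangles sister chromosomes, also named afterwards, was 56.4 and 64.2 in WT, 70.2, 69.1 and 73.1 in Evx1as KO and 87.1, 79.1 and 71.3 in EVX1 KO. Its difference was 0.39 ± 0.10 (adjusted p = 0.0928), again without overlap. Kif11 (0.44), Bub1b (0.37), Ccnb1 (0.34) and Ccnb2 (0.33) had adjusted p-values of 0.0843, 0.0836, 0.0873 and 0.206. In the helicase, the differences of Mcm2 (−0.08), Mcm3 (0.13) and Mcm7 (−0.01) had adjusted p-values of 0.452 to 0.951, and the group overlapped WT for each. Pole was the replication gene with the largest positive difference, 0.36 ± 0.10 (adjusted p = 0.0925). Mcm5 was at −0.35 ± 0.18 (adjusted p = 0.293) and Gins2 at −0.34 ± 0.18 (adjusted p = 0.328), both on chromosome 8 and both lowest in EVX1 KO 1 and 2. Without EVX1 KO 3, limma called 3 of the 44, Bub1, Mcm5 and Top2a, and 643 of 13101 genes in all, a similar share.

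**Figure D3:**
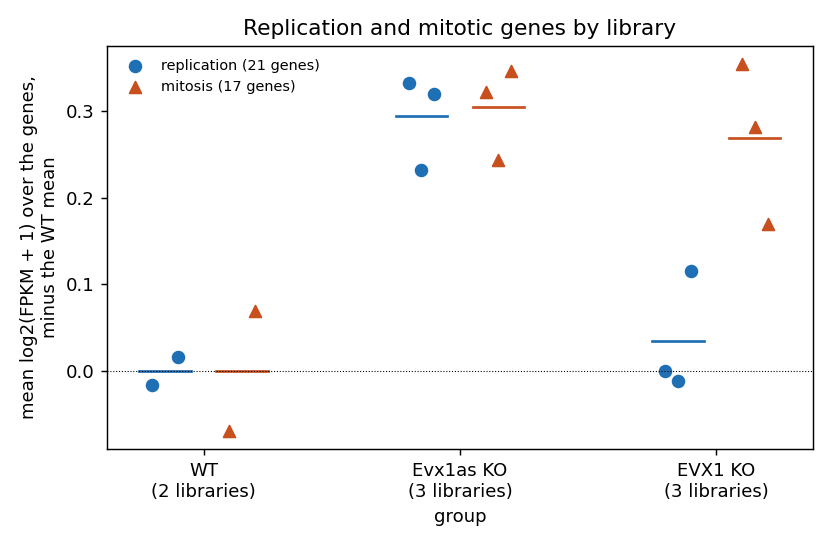
Mean log2(FPKM + 1) over the 21 replication genes (circles) and the 17 mitotic genes (triangles) in each library, minus the mean of the 2 WT libraries; bars are group means. In Evx1as KO both classes lie at 0.23 to 0.35, and in EVX1 KO the mitotic mean lies at 0.17 to 0.35 and the replication mean at −0.01 to 0.12.

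Setting the classes against each other within a library gave 1 value for each. The mean over replication genes lay above that over mitotic genes by 0.22 and 0.11 (log2) in WT and by 0.17, 0.15 and 0.14 in Evx1as KO, where the values fell between the 2 WT libraries. In the libraries labelled EVX1 KO it was −0.19, −0.13 and 0.11. EVX1 KO 1 and 2 were thus below WT and EVX1 KO 3 just under WT 2, the lower WT library. Without the 5 replication genes on chromosomes 1 and 8 the values were −0.15 and −0.21 in WT, −0.25, −0.24 and −0.28 in Evx1as KO and −0.49, −0.40 and −0.26 in EVX1 KO. All Evx1as KO libraries then lay below both WT libraries and no longer between them. EVX1 KO 3 then lay within the range of Evx1as KO. The 17 mitotic genes include none on those chromosomes.

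The third comparison set EVX1 KO directly against Evx1as KO, without WT in the contrast. In EVX1 KO 8 of the 21 replication genes were lower, 3 of them on chromosome 8, Ccnd1 and Ccnd2 were higher, and no mitotic gene was called. Of the 44, 2 were higher and 8 lower by limma, where 22% of all genes were called, 10.7% higher and 11.3% lower. The 21 replication genes, which held all 8, had a median difference of −0.22 with 2 above 0, while the medians of the mitotic and G1 genes were −0.06 and 0.25 and that of all genes −0.00. EVX1 KO lay wholly below Evx1as KO for 11 replication and 3 mitotic genes, where 20.8% of all genes did, and wholly above for 4 of the 44, where 20.1% did. At an unadjusted p under 0.05 there were 2 mitotic genes, Cenpa (−0.33, adjusted p = 0.0701) and Bub1b (−0.20, adjusted p = 0.126), where 4873 of the 13188 genes fell under it. With array weights limma called Aurkb, Bub1b, Ccnb2, Cenpa and Mki67 of the 17, and 5552 of all genes, so that the mitotic share was below that of all genes.

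Licensing again held most of the calls, 6 of 8. Mcm3 was lower by 0.47 on the log2 scale (−0.47 ± 0.08, adjusted p = 0.00577) and Mcm2 was at −0.38 ± 0.07 (adjusted p = 0.00610), calls kept with each library left out. Mcm7 was at −0.32 ± 0.08 (adjusted p = 0.0185) and Mcm4 at −0.23 ± 0.07 (adjusted p = 0.0452), while Mcm6, at −0.24 ± 0.09, did not pass (adjusted p = 0.0877). Pold1 was at −0.49 ± 0.11 (adjusted p = 0.0184). Pola1 was just outside the threshold at −0.37 ± 0.12 (adjusted p = 0.05002). In each of these 7 genes the EVX1 KO libraries lay below all 3 Evx1as KO libraries. The G1 cyclins went the other way, Ccnd1 at 0.81 ± 0.15 (adjusted p = 0.00611) and Ccnd2 at 1.67 ± 0.35 (adjusted p = 0.0112), each without overlap and with each library left out.

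The 3 genes of chromosome 8 were lower by more: Gins2 was at −0.75 ± 0.17 (adjusted p = 0.0142), Cdt1 at −0.73 ± 0.16 (adjusted p = 0.0130) and Mcm5 at −0.63 ± 0.16 (adjusted p = 0.0234). Their lowest values were in EVX1 KO 1 and 2, where the chromosome's median was low as well. After each chromosome's median was taken off each library, an alternative added after the data were seen, Gins2 was at −0.39 (adjusted p = 0.0548), Cdt1 at −0.38 (adjusted p = 0.0554) and Mcm5 at −0.28 (adjusted p = 0.0351). Mcm3 and Mcm6, on chromosome 1, were then at −0.69 (adjusted p = 7.49e-04) and −0.46 (adjusted p = 0.00582), and Pola1 at −0.39 (adjusted p = 0.0459). That fit again called 10 of the 44, of which 8 were shared, without Cdt1 and Gins2 and with Mcm6 and Pola1. Of the 16 replication genes outside chromosomes 1 and 8, 4 were called lower with the values as deposited, and their median was −0.13. Mcm4 was lost without any library but EVX1 KO 3 (adjusted p up to 0.158), and Mcm5 and Mcm7 without Evx1as KO 1, Evx1as KO 3 or EVX1 KO 2 (up to 0.0841 and 0.0791). Pold1 was lost without Evx1as KO 3 or EVX1 KO 2 (0.0727), Cdt1 without Evx1as KO 3 (0.0551) and Gins2 without Evx1as KO 1 (0.0501).

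**Figure D4:**
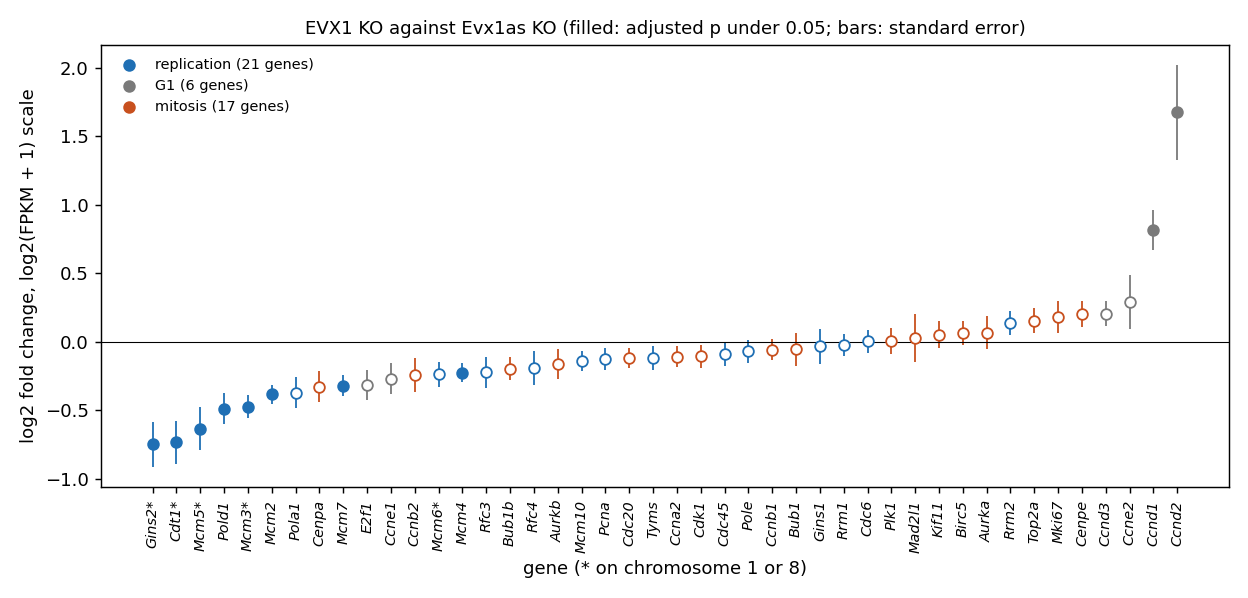
Log2 difference of EVX1 KO against Evx1as KO for each of the 44 genes, with bars of 1 SE, filled points for those called by limma and stars on genes of chromosome 1 or 8. The 8 filled points below 0 are replication genes and the 2 above 0 are Ccnd1 and Ccnd2, and the mitotic genes spread around 0.

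The promoter motifs were set beside the calls as counts. Of the 8 genes lower in EVX1 KO than in Evx1as KO, 6 had a promoter entry and 5 of these held an E2F motif, Mcm5 among them with the overlapping pair shown above. All 8 are replication genes, a class in which 9 of 17 promoters held that motif, against 1 of 15 mitotic promoters. Of the 17 genes that rose in Evx1as KO, 14 had an entry: 6 held an E2F motif, 5 the CHR motif and 11 CCAAT. Of the 23 genes called in no comparison, which come from every class, 20 had an entry, with 3, 7 and 14. Over all genes the shares of the motifs were 2.6%, 20.2% and 41.1%. The part of class in these counts was not tested. The Mcm6, Ccnb2 and Kif11 sequences above, of both motif kinds, belong to genes that rose in Evx1as KO and had no call in the direct comparison.

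Other genes of the same processes were taken from lists of 40 replication, 56 mitotic and 22 G1/S genes. In Evx1as KO 14 of the 40 replication genes rose and none fell, where 13% and 11.4% of all genes did, with a median of 0.24. Pold2, the second subunit of polymerase delta, was 28.6 and 28.3 FPKM in WT, 76.2, 58.1 and 71.1 in Evx1as KO and 34.3, 33.8 and 31.6 in EVX1 KO. It rose by 1.23 (adjusted p = 7.19e-04) and was at −1.01 in the direct comparison (adjusted p = 5.69e-04), both with each library left out. Its partner Pold3 rose by 0.80 (adjusted p = 0.00264), so that all 3 of its subunits in these lists were called. The other large rises were Orc3 (0.78, adjusted p = 0.00932), Dscc1 (0.65, adjusted p = 0.0212) and Tipin (0.60, adjusted p = 0.0159), all lost without WT 1 (up to 0.0705, 0.101 and 0.115). Dscc1 and Tipin were also lost without Evx1as KO 1 or 3, and Dscc1 without WT 2. In EVX1 KO against WT none of the 40 was called by limma, with 10 at an unadjusted p under 0.05, as were 2800 of the 13188 genes. In the direct comparison 7 of the 40 were lower and none higher, where 11.3% and 10.7% of all genes were, the largest differences being those of Pold2, Dut (−0.56), Rfc5 (−0.46), Chaf1b (−0.36) and Pold3 (−0.35, adjusted p = 0.0395, lost without Evx1as KO 1 or 3 or any EVX1 KO library, up to 0.136). Dut was lost without Evx1as KO 3 or EVX1 KO 2 (up to 0.0598) and Chaf1b without any Evx1as KO library or EVX1 KO 2 or 3 (up to 0.0774).

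Of the 56 other mitotic genes, 11 rose and 3 fell in Evx1as KO, where 13% and 11.4% of all genes did, with a median of 0.19. Nusap1, a spindle microtubule protein, rose by 0.64 (adjusted p = 0.00293) with each library left out, and the phosphatase gene Cdc25b rose by 0.60 (adjusted p = 0.00938, 0.0691 without WT 1). Cks2 (0.57), Cdc25c (0.56) and Cenpm (0.51) rose with adjusted p-values of 0.0245, 0.0234 and 0.0498. Leaving out 1 library moved Cks2 to between 0.35 and 0.79 and Cenpm to between 0.26 and 0.76. Cks2 was lost without WT 1, Evx1as KO 1 or 2 (up to 0.170), Cdc25c without either WT or Evx1as KO 3 (up to 0.106), and Cenpm without any library but WT 2 (up to 0.315). The falls were those of Nek2 (−0.45), Foxm1 (−0.33) and Gtse1 (−0.27), with adjusted p-values of 0.0328, 0.0176 and 0.0494. Nek2 was lost without either WT, Evx1as KO 1 or EVX1 KO 2 (up to 0.170), Foxm1 without either WT or Evx1as KO 3 (up to 0.0766), and Gtse1 without any library but EVX1 KO 1 and 3 (up to 0.169). Foxm1 encodes a transcription factor of mitotic genes. In EVX1 KO against WT, Ncapg (0.72, adjusted p = 0.0344) and Aspm (0.57, adjusted p = 0.0454) rose, and each was lost without either WT, Evx1as KO 1 or 3, or EVX1 KO 1 or 2 (up to 0.179 and 0.235), Aspm also without Evx1as KO 2. With chromosome medians taken off, Ncapg was still called in EVX1 KO against WT, and Aspm, on chromosome 1, was not. In the direct comparison 6 of the 56 were higher and 4 lower, near or under the 10.7% and 11.3% of all genes. Of the 6 higher, Nuf2 (0.80), Nek2 (0.67), Aspm (0.65), Cenpf (0.57) and Kif14 (0.53) lie on chromosome 1, which holds 6 of the 56 genes and whose median was high in EVX1 KO (adjusted p 9.47e-04 to 0.00572, called with each library left out). The other was Ndc80 (0.42, adjusted p = 0.0209), lost without Evx1as KO 1 or 3 or EVX1 KO 1 or 2 (up to 0.0839). With chromosome medians taken off, 8 of the 56 were higher, and Kif14 was no longer among them. Cenpm (−0.67), Cdc25b (−0.37), Nusap1 (−0.34) and Ncapd2 (−0.32) were lower. All 4 were lost without Evx1as KO 3, the last 3 also without Evx1as KO 1 or EVX1 KO 2, Cdc25b without EVX1 KO 1 and Ncapd2 without EVX1 KO 3 (up to 0.0586, 0.139, 0.0867 and 0.106).

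Of the 22 G1/S genes, 21 passed the filter, and 3 rose and 1 fell in Evx1as KO, near or under the 13% and 11.4% of all genes. Myb, a transcription factor gene, was 0.288 and 0.439 FPKM in WT, 4.56, 5.60 and 7.42 in Evx1as KO, and 0.107, 0 (as listed) and 0.146 in EVX1 KO. It rose by 2.31 on the log2(FPKM + 1) scale (adjusted p = 5.50e-04), a scale that understates changes of genes this low. E2f2, an activating E2F like E2f1, rose by 0.64 (adjusted p = 0.0217), and was lost without either WT, Evx1as KO 1 or 3 (up to 0.136). Fbxo5, an inhibitor of the ligase that Cdc20 activates, rose by 0.40 (adjusted p = 0.0214), lost without WT 1, Evx1as KO 1 or 3 (up to 0.138). E2f7, a repressive E2F, fell by 0.39 (adjusted p = 0.0498), lost without any library but WT 1 (up to 0.308), with values from −0.56 to −0.22. In EVX1 KO against WT limma called none of the 21, with 5 at an unadjusted p under 0.05, against 2800 of the 13188 genes. In the direct comparison 3 of the 21 were lower and 2 higher, near the shares of all genes. Myb was at −2.64 (adjusted p = 1.54e-04) and E2f6, a repressive E2F, at 0.39 (adjusted p = 0.0106), both with each library left out. E2f4, on chromosome 8, was at −0.59 (adjusted p = 0.0242), lost without any Evx1as KO library or EVX1 KO 2 (up to 0.0836). It was also lost with chromosome medians taken off. Cdk4, the kinase partner of D-type cyclins, was at −0.30 (adjusted p = 0.0380), lost without any Evx1as KO library or EVX1 KO 1 or 2 (up to 0.130). Rbl1, a retinoblastoma family gene, was at 0.43 (adjusted p = 0.0230), lost without Evx1as KO 1 or 3 or EVX1 KO 1 or 3 (up to 0.0879).

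Some values carry a limit of the table. Ccna2, Ccnd2, Ccnd3, Ccne2, Cdc20, Gins2, Mki67, Pole, Rfc4 and Rrm1 overlap another gene of the table, and no source used here states whether the counting used strand, so reads of the pairs may not be separated. The neighbour was the more abundant by mean FPKM for Mki67 (60.4 for an unnamed locus), Ccne2 (8.74 for Ints8) and Rfc4 (22.4 for Eif4a2).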

How the data were processed

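Sequencing was of poly(A) RNA with a TruSeq Stranded kit, per the labels' protocols. The authors deposited 1 table of FPKM values for the 8 libraries, in which a gene's level is scaled to its length and the library's depth. The submitters' processing notes list CASAVA, TopHat2 2.0.11 and the builds mm9 and mm10, without saying which step used which. No source used here gives the program behind the FPKM, its annotation or its strand setting. Of 45772 lines, 42245 held values for 38610 symbols, and the 2660 symbols on several lines had identical values and were used once. The 13188 genes that reached 1 FPKM in 2 or more of the 8 libraries were tested on log2(FPKM + 1), pseudocount 1. The test was limma 3.58.1 (R 4.3.3) with empirical Bayes moderation and an intensity trend. All 8 libraries entered 1 fit with a mean per group, which lets the 2 WT libraries share the spread of the others, with two-sided Benjamini-Hochberg adjusted p under 0.05. Class values are medians or means over genes, with no test. Fold changes on this scale understate those of low genes. The code was tested on simulated data for Evx1as KO against WT, with 50 genes changed by each of 4 folds. It recovered 6% of 1.25-fold, 36% of 1.5-fold, 74% of 2-fold and 96% of 4-fold changes, with 5 false calls. A gene that did not pass may therefore still differ by a small fold. Python 3.11.15 with pandas 2.3.3, numpy 2.4.6 and matplotlib 3.10.9 was used for the rest.

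FPKM keep no absolute depth, so no counting interval is given, and the relative depth was read from the steps between low values. Per-library values were given for each member called in any comparison and, within each of 8 roles, for the most abundant member and the one with the largest change in Evx1as KO. From each other list up to 5 called genes each way were named. The members and lists were chosen with earlier results of these data known. The alternatives were another pseudocount, filter, scaling, array weights, a fit of 2 groups, a replicate block, each library left out and, added after the data were seen, chromosome medians taken off.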

Additional observations from a re-analysis of the deposited data

Results flagged for a closer look

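For 10 of the 44 genes the effect of the EVX1 knockout label differed from that of the Evx1as knockout. The test was that of the difference itself, in which the shared WT libraries cancel (limma, adjusted over all genes). The same test called 22% of all 13188 genes, so the share among these genes was near that of all genes. The EVX1 KO effect was higher for the D-type cyclin genes Ccnd1 (0.81 on the log2 scale) and Ccnd2 (1.67), which were low in the 3 Evx1as KO libraries. It was lower for the helicase subunit genes Mcm2 (−0.38), Mcm3 (−0.47), Mcm4 (−0.23), Mcm5 (−0.63) and Mcm7 (−0.32), for the loading factor gene Cdt1 (−0.73), for the GINS subunit gene Gins2 (−0.75) and for the polymerase gene Pold1 (−0.49). The low median of chromosome 8 in EVX1 KO 1 and 2 moved with Mcm5, Cdt1 and Gins2. With chromosome medians taken off, Cdt1 and Gins2 no longer passed.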

How the results depend on the processing

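For the 29 members with per-library values in the text, 1246 values under the alternatives kept direction and call, 84 lost and 28 gained the call, and 28 changed sign, none of these a called difference. With array weights limma called 7 members in EVX1 KO against WT (1148 of all 13188 genes) and 18 in the direct comparison (5552 of all genes, a similar share), where the replication median was −0.15. Without members on chromosomes 1 and 8 (none lies on chromosome 14) the direct comparison had 6 calls and a replication median of −0.13. In Evx1as KO against WT, Cdt1, Gins2 and Mcm5 of chromosome 8 were at 0.68, 0.41 and 0.28 as deposited. With chromosome medians taken off they were at 0.59, 0.31 and 0.18. At a mean of at least 5 FPKM, where Ccnd2 and Ccne2 were not tested, the G1 median was 0.0707 in Evx1as KO against WT and −0.0308 in the direct comparison. In Evx1as KO against WT, 14 members and 2489 of 23869 genes were called without the low-value filter. Aurkb, Ccnd2, Cdt1, E2f1, Kif11 and Pola1 were then lost and Mcm10 was gained. The fit of 2 groups lost E2f1 and Kif11 and gained Gins2 and Rfc3 (3138 of 12833 genes called). Chromosome medians taken off gained Cdc20 and Rfc3 (3444 of 13188). The replicate block gave 13, 0 and 9 called members in the 3 comparisons, against 19, 0 and 10. Over all genes it gave 2575, 28 and 2564 calls, against 3230, 164 and 2903. The replicate numbers did not pair the libraries (correlations of deviations −0.0985 to 0.0759). Leaving out 1 library in turn gave 5 to 19, 0 to 3 and 5 to 11 calls, with a lone WT library assumed to vary like the other groups. It gave a mitotic median of 0.17 to 0.36 in Evx1as KO against WT and of −0.0873 to 0.0467 in the direct comparison (0.0467 without EVX1 KO 3), and a replication minus mitosis difference of −0.31 to −0.13 in EVX1 KO against WT. The causes were not tested.

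Signs changed as follows with 1 library left out. In Evx1as KO against WT, Birc5 ran from −0.14 to 0.15 and Ccnd3 from −0.21 to 0.0323. In EVX1 KO against WT, Birc5 ran from −0.0776 to 0.21, Ccnd1 from −0.10 to 0.0174, Ccnd2 from −0.13 to 0.60, Ccnd3 from −0.0012 to 0.24, Cdt1 from −0.22 to 0.11, Mcm7 from −0.0665 to 0.0433, Pcna from −0.0034 to 0.11, Pola1 from −0.0037 to 0.26 and Rrm2 from −0.0382 to 0.0863. In the direct comparison, Bub1 ran from −0.12 to 0.0467 and Plk1 from −0.0388 to 0.0744. Other settings turned Birc5 in Evx1as KO (−0.0241 with median-ratio scaling, −0.0029 with array weights, −0.0015 with the replicate block), Ccnd1 (0.0162 with the block) and Rrm2 (−0.0106 with array weights) in EVX1 KO against WT, and Bub1 in the direct comparison (0.0084 with array weights). With chromosome medians taken off, Cdt1 (0.21), Mcm7 (0.0109) and Mcm3 (−0.0377) changed sign in EVX1 KO against WT.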
